A study of Mus musculus with 4 samples.

Results

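The genes described here are the glucocorticoid receptor gene Nr3c1 and 9 genes that the hormone-bound receptor is well known to induce, Tsc22d3, Fkbp5, Per1, Sgk1, Dusp1, Klf9, Ddit4, Errfi1 and Glul. They were taken by gene symbol, as every probe set that the platform annotation gives to 1 of these 10 genes alone, which gave 28 of the 45037 probe sets other than controls. Messenger RNA was read with 4 Affymetrix arrays from an immortalised line of mouse embryonic fibroblasts (MEFs) with loxP sites on both PA1 alleles. A retrovirus that expresses Cre recombinase, which removes DNA between loxP sites, gave the PA1 -/- cells (2 arrays), and the retroviral vector alone gave the PA1 +/+ cells (2 arrays). Both were grown in DMEM with 10% serum, and the culture protocol for all samples includes 2 rounds of puromycin selection. The labels name no added hormone. Cre was present only in the PA1 -/- cells, so loss of PA1 and presence of Cre cannot be told apart, and the labels do not say whether either culture was 1 clone or a pool. The study asked which genes PA1 regulates. PA1 is taken here to be the product of Pagr1a, a subunit that KMT2C and KMT2D, 2 histone H3 lysine methyltransferases, share in their complexes.

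The glucocorticoid receptor is a nuclear receptor that waits in the cytoplasm, folded by HSP90 and its co-chaperones, until it binds a steroid such as corticosterone. It then enters the nucleus and binds DNA at glucocorticoid response elements, 2 inverted copies of a hexamer with 3 bases between them, where it recruits coactivators or corepressors. In fibroblasts its induced genes restrain growth factor and stress kinase signalling, dampen inflammatory genes and shift metabolism. Many of them also answer to serum, growth factors, cAMP, the circadian clock or starvation, so their messenger RNA is no direct reading of receptor activity.

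Ddit4 and Errfi1 were the members with the largest difference. Both read about 2.36-fold lower in the PA1 -/- arrays on the log2(signal + 9.96) scale. Klf9 read 1.51-fold lower. Nr3c1 itself and the remaining induced genes, Tsc22d3, Fkbp5, Per1, Sgk1, Dusp1 and Glul, lay between a log2 difference of -0.19 and 0.36. With genotype as the only term, none of the 10 passed limma across all 22519 probe sets tested (adjusted p = 0.9998 for each), and in that test 0% of genes were called, with 231 of 10714 at an unadjusted p under 0.05. Pagr1a, the targeted gene, did not pass that test either (limma adjusted p = 0.876), so a gene that did not pass is not shown to be unchanged. A fit with the replicate number as a further term made other calls, Ddit4, Errfi1 and Pagr1a among them. Its values stand with the alternatives after the report. Signals are MAS5 values as the authors deposited them, each array scaled to a common average, so that a difference is relative to the rest of the array.

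Promoter windows show which of these genes carry the receptor's letters close to a transcript start. RefSeq windows on GRCm38.p6 run from 250 bases before to 50 bases after a start, and 18 such windows belonged to 9 of the genes. The element was searched as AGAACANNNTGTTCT and its half-site as TGTTCT, and, for other inputs to these genes, the cAMP response element as TGACGTCA and the E-box as CACGTG, all on both strands. A full element holds 2 half-sites, and in the Sgk1 window an E-box and a half-site overlap. The windows below are Sgk1, the one with a full element, Errfi1 and Dusp1, the ones with a cAMP response element, and Per1 and Ddit4, the genes with the highest and the lowest difference. Capitals mark every match to these 4 motifs, and each sequence runs 5′ to 3′ along the gene's strand. They lie at chr10:21993640-21993939 on the plus strand (Sgk1), chr4:150854820-150855119 on the plus strand (Errfi1), chr17:26508423-26508722 on the minus strand (Dusp1), chr11:69098699-69098998 on the plus strand (Per1) and chr10:59951721-59952020 on the minus strand (Ddit4).
Sgk1: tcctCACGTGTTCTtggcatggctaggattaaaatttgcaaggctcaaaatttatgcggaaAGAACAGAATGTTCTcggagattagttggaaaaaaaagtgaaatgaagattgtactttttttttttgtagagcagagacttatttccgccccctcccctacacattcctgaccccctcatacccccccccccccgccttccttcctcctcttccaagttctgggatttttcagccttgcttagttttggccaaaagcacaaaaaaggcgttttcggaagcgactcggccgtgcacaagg
Errfi1: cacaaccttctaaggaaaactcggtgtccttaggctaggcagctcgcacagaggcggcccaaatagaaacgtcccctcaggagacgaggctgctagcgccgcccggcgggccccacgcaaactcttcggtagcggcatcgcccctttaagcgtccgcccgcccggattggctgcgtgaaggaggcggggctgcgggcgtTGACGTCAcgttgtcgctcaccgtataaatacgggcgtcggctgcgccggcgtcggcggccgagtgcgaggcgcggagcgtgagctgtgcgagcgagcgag
Dusp1: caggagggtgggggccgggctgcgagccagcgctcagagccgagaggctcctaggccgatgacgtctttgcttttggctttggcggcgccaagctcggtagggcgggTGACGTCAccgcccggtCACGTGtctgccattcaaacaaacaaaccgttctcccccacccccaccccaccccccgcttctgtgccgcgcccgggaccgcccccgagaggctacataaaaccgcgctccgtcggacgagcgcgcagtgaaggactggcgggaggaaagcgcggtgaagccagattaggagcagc
Per1: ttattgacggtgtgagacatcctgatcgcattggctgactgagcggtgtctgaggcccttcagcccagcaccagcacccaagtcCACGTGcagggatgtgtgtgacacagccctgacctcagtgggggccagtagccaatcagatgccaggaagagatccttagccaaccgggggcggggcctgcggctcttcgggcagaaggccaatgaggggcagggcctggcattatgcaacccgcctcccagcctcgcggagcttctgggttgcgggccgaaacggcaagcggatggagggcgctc
Ddit4: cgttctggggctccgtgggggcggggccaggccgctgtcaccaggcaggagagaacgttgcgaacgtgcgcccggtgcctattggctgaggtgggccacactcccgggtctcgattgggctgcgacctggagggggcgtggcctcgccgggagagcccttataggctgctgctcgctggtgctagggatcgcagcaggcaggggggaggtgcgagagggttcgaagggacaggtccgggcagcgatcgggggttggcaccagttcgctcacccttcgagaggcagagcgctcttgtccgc

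The full element was found in 1 of the 18 windows, that of Sgk1 from -189 to -175 before the start, and in 3 of all 32851 mouse windows (0.00913%). Sgk1 has 6 windows, and the other 5 held no full element. A half-site was found in 4 of the 18 windows, 1 of Tsc22d3 and 3 of Sgk1, against 19.0% of all windows. The cAMP response element stood at -143 in Dusp1 and at -51 in 1 of the 2 Errfi1 windows, and in 1.79% of all windows. An E-box, the letters bound by the clock factors CLOCK and BMAL, stood at -169 in Fkbp5, -166 in Per1, -246 in Sgk1 and -126 in Dusp1, and in 7.15% of all windows. The Ddit4 window held none of the 4 motifs. Response elements of the receptor often lie far from the start, so these windows describe the letters nearest the gene and no more.

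The targeted gene was read first. Pagr1a had signals of 108 and 113 in the PA1 -/- arrays numbered 1 and 2, against 1340.3 and 1389 in the PA1 +/+ arrays, by its brightest probe set (log2 difference -3.51). Its other 2 probe sets were at -3.45 and -3.29. With genotype as the only term, limma gave the brightest a p of 4.56e-05 before adjustment and 0.876 after it. The labels do not say which part of the gene Cre removes, so these probe sets may or may not lie inside it. Of 11 fibroblast markers, 10 passed the filter on dim probe sets. All 11 summed to 79376 and 89128 in the PA1 -/- arrays and 89063 and 109461 in the PA1 +/+ arrays, so the sums overlapped. The 10 that passed all had a negative log2 difference, and 7 had one within each number, against 29.3% of all genes. Pdgfra, a platelet-derived growth factor receptor gene, read 134 and 210.3 in the PA1 -/- arrays, against 1515 and 357 in the PA1 +/+ arrays (-2.07), the proteoglycan gene Dcn 41.4 and 37.9 against 138 and 103 (-1.38), and Pdgfrb 1571 and 2807 against 3694 and 3482 (-0.77). The other 7 lay between -0.51 for S100a4 and -0.09 for Fn1, with Vim at -0.15. Lum was below the filter and went the other way, at 31.1 and 28.9 in the PA1 -/- arrays against 21.3 and 19.0 in the PA1 +/+ arrays (0.41). Most fibroblast markers were therefore lower in the same arrays as Ddit4, Errfi1 and Klf9. Markers of other cell types were summed by list, which sets arrays but not lists side by side. The 6 epithelial markers summed to 3744 and 2007 in the PA1 -/- arrays against 2289 and 2090.0 in the PA1 +/+ arrays, mostly from Krt19, and 5 leukocyte markers to 295 and 203 against 302 and 259. The 4 endothelial markers summed to 135 and 147 against 131 and 107, the 4 adipocyte markers on the array to 116 and 489 against 338 and 448, the 5 muscle markers to 298 and 882 against 255 and 864, and the 4 neuronal markers to 489.7 and 208 against 1025 and 494. Their part in the results was not tested. Whether arrays 1 and 2 of a genotype came from separate cultures is not in the labels. Every p-value therefore rests on the spread between these arrays alone, which may be technical. Same-numbered arrays deviated together from their group means (correlation 0.805 over tested probe sets). The fit with genotype as the only term counts that shared shift as error, which widens its SEs and intervals.

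Nr3c1, the receptor gene, showed no steady difference. Its brightest probe set (1460303_at) read 1072 and 1182 in the PA1 -/- arrays, against 1227 and 1291 in the PA1 +/+ arrays. Both PA1 -/- values lay below both PA1 +/+ values, by a margin of a few percent, as did 11.3% of all genes. The log2 difference was -0.16 (SE 0.23, 95% interval -0.75 to 0.43, limma adjusted p = 0.9998).

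The other Nr3c1 probe sets were split in direction. The second brightest (1421867_at) read 640.1 and 945 in the PA1 -/- arrays, against 560.0 and 809.7 in the PA1 +/+ arrays, a difference of 0.20 with overlap between groups. The next (1457635_s_at) read 168 and 312 against 348 and 227, a difference of -0.28. It was lower at number 1 (-1.01) and higher at number 2 (0.45). The fourth, close to the filter boundary near a signal of 62.8, differed by 0.08. The 2 below the filter, with signals between 3.59 and 54.2, were at -0.66 and 0.85. Receptor messenger RNA was thus present on all 4 arrays, with probe sets of opposite sign. Fewer expressing cells and less RNA per cell cannot be told apart in these bulk samples.

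**Figure D1:**
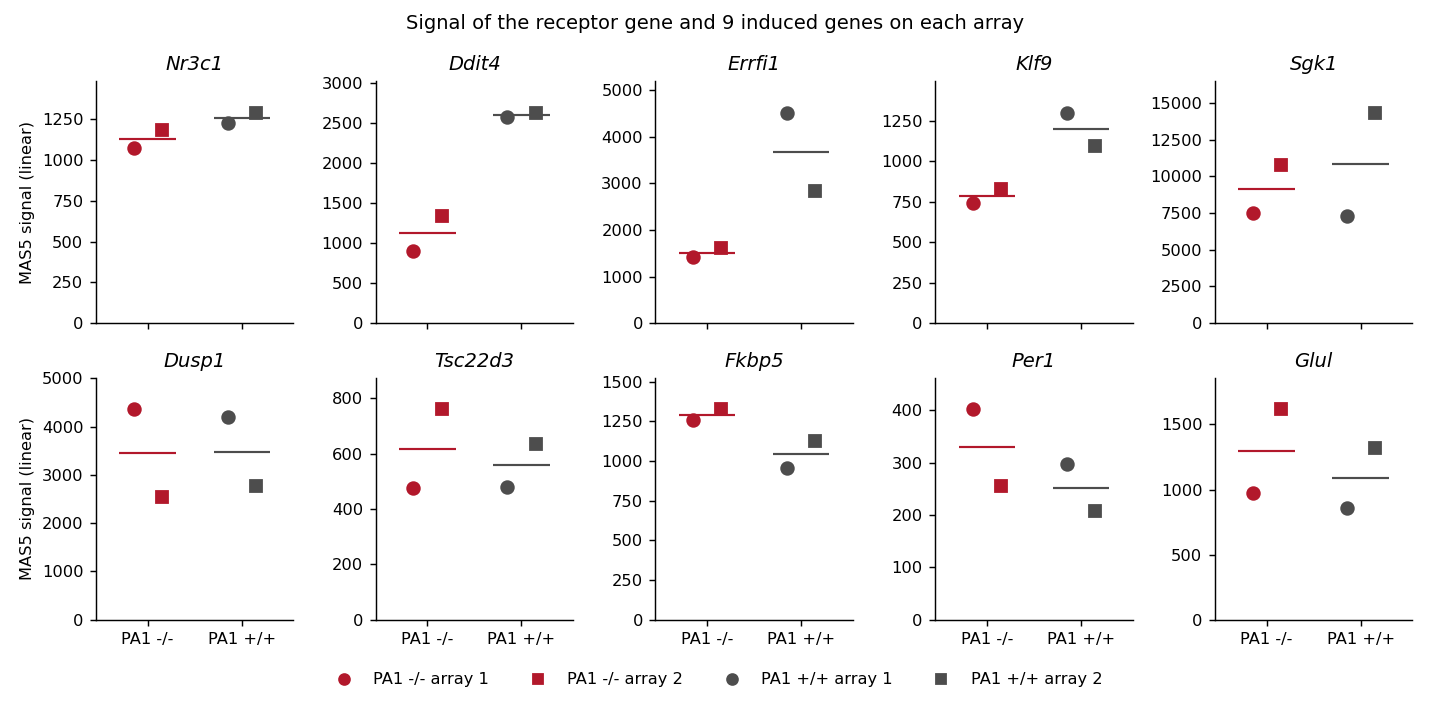
MAS5 signal (linear, from 0) of the brightest probe set of each gene, with PA1 -/- arrays in red on the left and PA1 +/+ arrays in grey on the right. Circles are arrays numbered 1, squares are arrays numbered 2, and bars are group means (n = 2 each). Ddit4, Errfi1 and Klf9 separate clearly by genotype, while circles and squares stand apart within both genotypes for Sgk1, Dusp1, Tsc22d3, Per1 and Glul.

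Ddit4 (also called REDD1), which restrains the growth kinase mTOR, had the lowest difference. Its single probe set (1428306_at) read 898 and 1344 in the PA1 -/- arrays, against 2576 and 2629.8 in the PA1 +/+ arrays. The 2 PA1 +/+ values were almost equal, and both PA1 -/- values lay far below them. Means were 1121 ± 315 in PA1 -/- and 2603 ± 37.7 in PA1 +/+ cells (SD, n = 2 each). The log2 difference was -1.24 (SE 0.28, 95% interval -1.97 to -0.51), at -1.51 within number 1 and -0.96 within number 2. The limma p was 0.00779 before adjustment and 0.9998 after it. Of all 10714 genes, 1.2% had a difference at or below that of Ddit4.

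Errfi1 (also called MIG6), a feedback inhibitor of the epidermal growth factor receptor, was lower by almost the same amount. Its brightest probe set (1416129_at) read 1414 and 1619 in the PA1 -/- arrays, against 4517 and 2834 in the PA1 +/+ arrays. Here the PA1 -/- arrays were close together and the PA1 +/+ arrays far apart, with no overlap between groups. The log2 difference was -1.24 (SE 0.30, 95% interval -2.02 to -0.45), at -1.67 within number 1 and -0.80 within number 2. The limma p was 0.0101 before adjustment and 0.9998 after it. The second probe set (1419816_s_at) read 539 and 727 in the PA1 -/- arrays, against 1388 and 982 in the PA1 +/+ arrays, a difference of -0.89. Its suffix marks probes that may match transcripts of other genes.

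Klf9, a Krüppel-like transcription factor that represses proliferation genes, was the member with most probe sets. The brightest of its 7 (1456341_a_at) read 739.8 and 829.8 in the PA1 -/- arrays, against 1299 and 1093 in the PA1 +/+ arrays. The log2 difference was -0.60 (SE 0.25, 95% interval -1.24 to 0.05), and 4.84% of genes lay at or below it. The limma p was 0.0624 before adjustment and 0.9998 after it.

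All 5 Klf9 probe sets that passed the filter were lower at both numbers with no overlap between groups, from -0.57 to -0.82. Of all tested probe sets, 29.7% were lower at both numbers. Both PA1 -/- arrays lay below both PA1 +/+ arrays for 11.3% of all genes. The probe set at the low end (1436952_at) read 150.1 and 137 in the PA1 -/- arrays, against 273 and 249 in the PA1 +/+ arrays, with nearly the same difference at number 1 (-0.82) and number 2 (-0.81). Another (1428289_at) read 463 and 515 against 793 and 812 (-0.71). The 2 remaining were below the filter. One stood at 39.3 and 37.1 against 71.9 and 43.3 (-0.455). The other lay between 8.53 and 20.6 on all arrays and went the other way (0.315). Probe sets of 1 gene share their RNA and arrays, so they are repeated readings of 1 difference and not replicates.

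**Figure D2:**
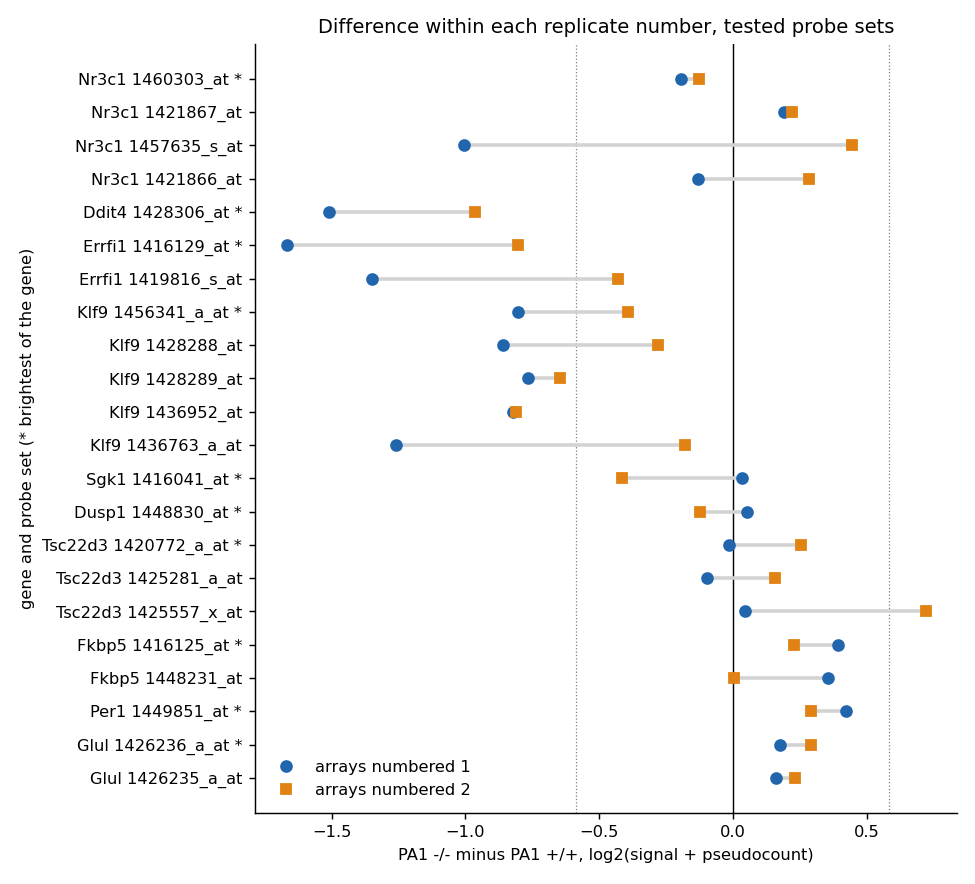
Difference between PA1 -/- and PA1 +/+ (log2(signal + 9.96)) within the arrays numbered 1 (blue circles) and numbered 2 (orange squares), for the 22 probe sets that passed the filter on dim signals. Dotted lines mark 1.5-fold. All Ddit4, Errfi1 and Klf9 points lie left of 0, and those of Nr3c1 and Tsc22d3 lie on both sides.

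Sgk1 and Dusp1, which encode kinase-pathway enzymes, differed more between replicate numbers than between genotypes. Sgk1, the serum and glucocorticoid regulated kinase with the full element printed above, read 7482 and 10739 in the PA1 -/- arrays, against 7312 and 14330.4 in the PA1 +/+ arrays. It was bright on all 4 arrays and overlapped between genotypes (log2 difference -0.19, 95% interval -1.19 to 0.81). Number 2 exceeded number 1 by 0.75 on the log2 scale. Dusp1, a phosphatase that switches off MAP kinases, read 4358 and 2531 in the PA1 -/- arrays, against 4197 and 2759 in the PA1 +/+ arrays. Its genotype difference was -0.03 (95% interval -0.99 to 0.92), and number 2 was below number 1 by a log2 difference of -0.69. Dusp1 was at 0.05 within number 1 and -0.12 within number 2, and Sgk1 at 0.03 and -0.42.

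The receptor's feedback and effector genes Fkbp5 and Tsc22d3 had positive log2 differences through their brightest probe sets, with intervals that span 0. Fkbp5, an HSP90 co-chaperone that lowers the receptor's affinity for hormone, read 1257 and 1326 in the PA1 -/- arrays, against 955 and 1129 in the PA1 +/+ arrays (1416125_at). Both PA1 -/- arrays lay above both PA1 +/+ arrays, as for 15% of all genes, with a log2 difference of 0.31 (SE 0.24, 95% interval -0.31 to 0.93). A second probe set read 337 and 323 against 261 and 321, with a difference of 0.18 that came almost wholly from number 1. The last was below the filter, at 13.2 or less.

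Tsc22d3, which encodes the leucine zipper protein GILZ, a mediator of the anti-inflammatory action of glucocorticoids, read 476 and 761 in the PA1 -/- arrays, against 480.0 and 636 in the PA1 +/+ arrays (1420772_a_at). The log2 difference was 0.12 (95% interval -0.79 to 1.03). The arrays numbered 1 were almost equal (log2 difference -0.01), and those numbered 2 differed by 0.26. Another probe set (1425281_a_at) differed by 0.03. A dimmer one (1425557_x_at), whose suffix marks probes that may match unrelated transcripts, read 183 and 298 in the PA1 -/- arrays against 177 and 177 in the PA1 +/+ arrays (0.38), so 1 array stood apart. The last was below the filter, between 41.1 and 54.5.

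Per1 and Glul, a clock gene and a metabolic gene, had slightly higher signals in PA1 -/- cells at both numbers. Per1, a repressor in the circadian clock, read 402 and 256 in the PA1 -/- arrays, against 297 and 207 in the PA1 +/+ arrays. This was the highest difference of the 10 genes, at 0.36 (SE 0.36, 95% interval -0.59 to 1.31), and 12.6% of all genes lay at or above it. The groups overlapped, because number 2 was below number 1 in both genotypes, by -0.63 in PA1 -/- and -0.50 in PA1 +/+ cells on the log2 scale. Glul, which encodes glutamine synthetase, read 973 and 1616 in the PA1 -/- arrays, against 859.7 and 1318 in the PA1 +/+ arrays, a difference of 0.23. Its second probe set gave 0.20, from 512 and 794 against 457 and 675. Number 2 stood above number 1 for Glul in PA1 -/- (0.73) and in PA1 +/+ cells (0.61).

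Read together through their brightest probe sets, the 10 genes split. At both numbers, 4 were lower in PA1 -/- cells (Nr3c1, Klf9, Ddit4 and Errfi1) and 3 were higher (Fkbp5, Per1 and Glul), while Sgk1, Dusp1 and Tsc22d3 had opposite signs at the 2 numbers. Over all 10714 genes, 29.3% were lower and 33.9% higher at both numbers. Over their 22 tested probe sets, 9 were lower at both (8 of them of Klf9, Ddit4 and Errfi1), 7 were higher and 6 mixed, against 29.7% lower and 33.1% higher among all tested probe sets. At least 1.5-fold lower at both were 2 of the 10 (Ddit4 and Errfi1), against 2.55% of all genes, and 0 were at least 1.5-fold higher at both, against 1.46%. At an unadjusted limma p under 0.05 there were the same 2 genes, where 1.34% of all genes were lower and 0.812% higher at that level. The median log2 difference was -0.10 for the 10 genes and 0.02 for all genes. It was 0.01 within number 1 and -0.13 within number 2. With 2 arrays a group, an exact permutation test of a single gene cannot give a 2-sided p below 0.333.

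The replicate number moved 5 of the 10 genes further than genotype did, namely Sgk1, Dusp1, Tsc22d3, Per1 and Glul. The same held for 67.5% of all genes. Ddit4, Errfi1, Klf9, Fkbp5 and Nr3c1 differed less between numbers than between genotypes, with log2 number differences of 0.30, -0.24, -0.04, 0.16 and 0.11. What the numbers stand for is not given in the labels.

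**Figure D3:**
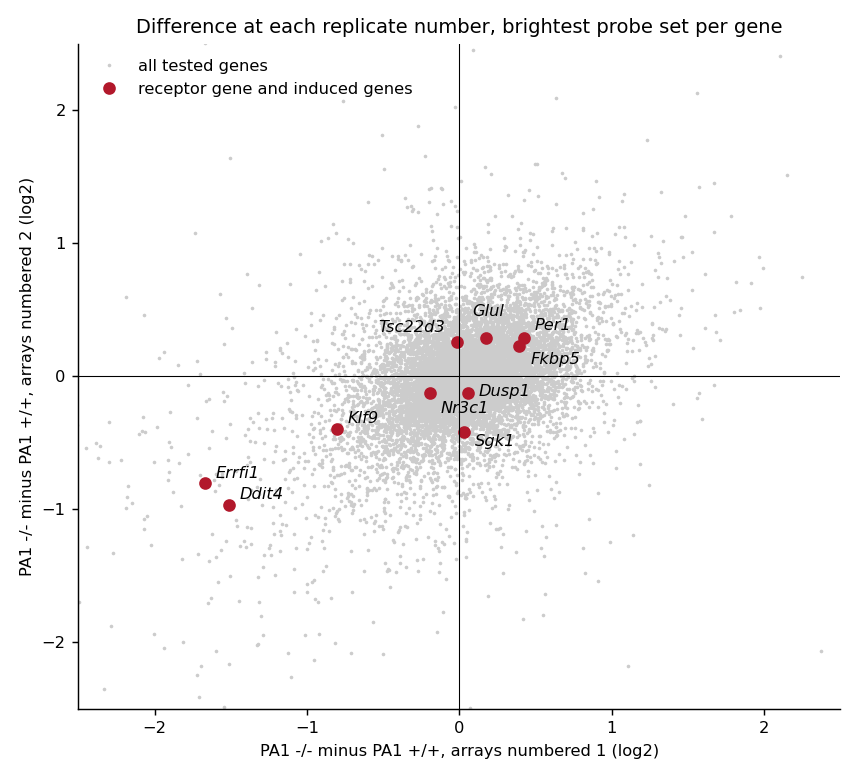
Log2 difference between PA1 -/- and PA1 +/+ within the arrays numbered 1 (horizontal) and numbered 2 (vertical), through each gene's brightest probe set. Red points are the 10 named genes and grey points all tested genes, of which 42 lie outside the plotted range. Ddit4 and Errfi1 lie to the lower left, with other tested genes further out. Klf9 lies nearer the centre, and the other 7 lie within the cloud.

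Among 44 other genes known to be induced by glucocorticoids in at least some tissue, 32 were tested, and 0 passed limma in either direction. The median was -0.25, and 19 were lower against 2 higher in PA1 -/- cells within both numbers, where 29.3% of all genes were lower and 33.9% higher. The C/EBP factor genes Cebpd and Cebpb stood lowest. Cebpd read 465 and 1278 in the PA1 -/- arrays, against 3580 and 5072 in the PA1 +/+ arrays (-2.45). Cebpb read 1087 and 2463 against 5946 and 6018 (-1.86). Second probe sets gave -0.57 for Cebpd and -2.25 for Cebpb. Of the 32, 4 were at least 1.5-fold lower at both numbers, against 2.55% of all genes: these 2, the cell cycle inhibitor gene Cdkn1c and Snai2, a repressor of epithelial genes. Cdkn1c was bright at number 1 and dim at number 2, at 854 and 3.16 against 2160.1 and 43.4. The genotypes overlapped for Cdkn1c and for Snai2. At an unadjusted p under 0.05 stood 3 of the 32, all lower, against 1.34% of all genes: Cebpd, Cebpb and the metallothionein gene Mt2, which read 3349 and 3689.9 against 5583 and 5498 (-0.65). Cdkn1c, Snai2 and Mt2 are named after their values were seen. On the higher side stood Il1r1, an interleukin-1 receptor gene, at 177 and 129 against 102 and 63.6 (0.83), and the dim Hif3a (0.69). These were the 2 of the 32 at least 1.5-fold higher at both numbers, against 1.46% of all genes.

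Genes that the receptor represses in other settings were read next. Of 24 listed, 12 were tested, 0 passed limma (1 at an unadjusted p under 0.05, Ccl7), 5 were lower and 2 higher in PA1 -/- cells at both numbers (29.3% and 33.9% of all genes), and the median was -0.35, against 0.02 over all genes. The chemokine gene Ccl7 read 91.9 and 31.6 in the PA1 -/- arrays, against 187 and 172 in the PA1 +/+ arrays (-1.54), and Cxcl1 499.8 and 261 against 887 and 479 (-0.83; -1.86 and -1.16 by other probe sets). Csf1, a macrophage growth factor gene, was at 0.69, from 1.24 within number 1 and 0.14 within number 2. Its other probe sets were at 0.36 to 0.67. The hormone precursor gene Pomc was at 0.63, from -0.03 within number 1 and 1.28 within number 2.

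Among the receptor's coregulator genes, differences were small. Of 20 tested of 24, 0 passed limma (0 also at an unadjusted p under 0.05), 10 were higher and 4 lower within both numbers (33.9% and 29.3% of all genes), and the median was 0.24. Nrip1, a corepressor gene, was at 0.46 by its brightest probe set, with others from -0.39 to 0.17, and the acetyltransferase gene Kat2b read 1473 and 1279 in the PA1 -/- arrays, against 1106 and 923 in the PA1 +/+ arrays (0.44). Arid1a, a chromatin remodeller subunit gene, was at -0.25 (0.30 by a second probe set), and the coactivator gene Ncoa3 at -0.20 (0.17 by a second).

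Genes for folding and transport of the receptor had a median of 0.04 over 14 tested of 17, with 5 higher and 2 lower at both numbers (33.9% and 29.3% of all genes) and 0 passing, also at an unadjusted p under 0.05. The co-chaperone gene Dnajb1 was at 0.38 and the import receptor gene Kpnb1 at 0.38. The ubiquitin ligase gene Stub1 was at -0.39 and the endoplasmic reticulum chaperone gene Hsp90b1 at -0.25. Other probe sets gave 0.14 for Dnajb1, 0.15 to 0.50 for Kpnb1, -0.52 for Stub1 and -0.41 for Hsp90b1. Of 11 genes for related receptors and steroid handling, 2 were tested, the drug efflux pump gene Abcb1b (0.29) and H6pd (0.09), which supplies the cofactor for steroid reactivation. Hsd11b1, the enzyme that makes the active steroid inside cells, was below the filter.

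**Figure D4:**
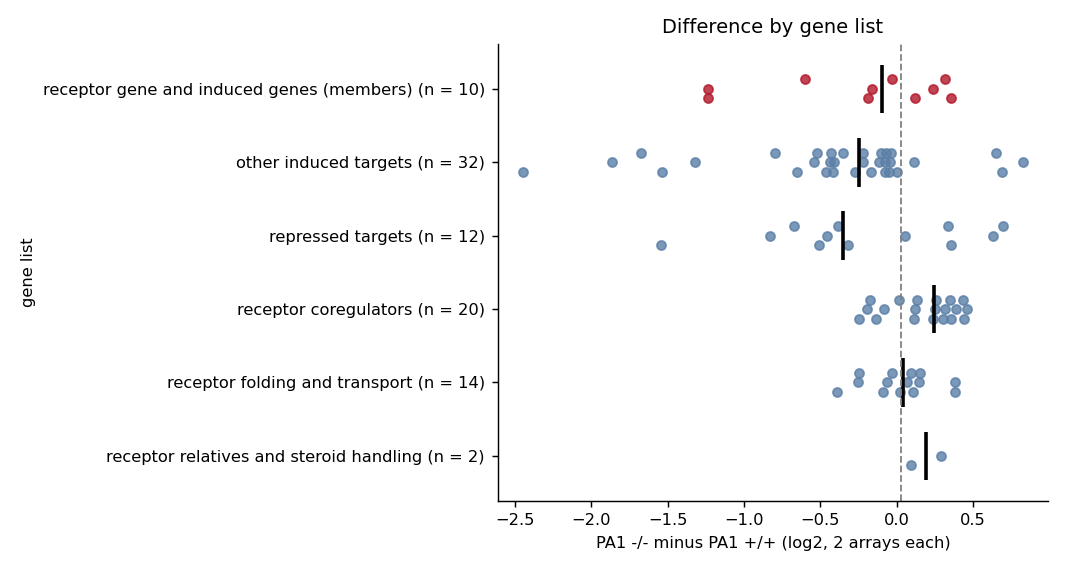
Log2 difference between PA1 -/- and PA1 +/+ (2 arrays each) for the 10 named genes (red, top) and for each other list of the pathway (blue), 1 point per tested gene. Black bars are list medians, from -0.35 for repressed targets to 0.24 for coregulators, and the dashed line is the median of all tested genes (0.02).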

How the data were processed

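Total RNA of 2 PA1 -/- and 2 PA1 +/+ samples was hybridised to Affymetrix arrays. The deposited intensity values are linear probe set signals from MAS5, per the submitters' processing notes, with version and settings not given in the sources used here. Each array had a mean of 500 without the lowest and highest 2% of its 45101 probe sets, so a change shared by most genes is removed. The 10 genes and the 5 lists were chosen with earlier results of these data known. The motifs and the genes with printed windows beyond Per1 and Ddit4 were chosen after the signals had been seen.

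After 64 controls were left out, 34945 of 45037 probe sets had 1 gene symbol, 932 several and 9160 none. RefSeq's gene table (GRCm38.p6) held the identifiers of 34741, with 0 symbols changed. Signals were analysed as log2(signal + 9.96), 9.96 being the 20th percentile of all values, which understates the change of dim genes. The upper 50% by mean were tested (22519 probe sets, 10714 genes read through the brightest) with limma 3.58.1 in R 4.3.3 (lmFit, eBayes with an intensity trend, genotype as the only term, 2-sided, Benjamini-Hochberg over all tested probe sets, threshold 0.05), after a check on simulated data. Intervals are unadjusted. Named were the 10 genes, Pagr1a and the 2 highest and 2 lowest tested genes of each list (1 each where under 8 were tested). The rule also asked for a protein sequence, which was not used here. Alternatives were 3 normalizations, 2 pseudocounts, 2 filters, 2 variance models, means of probe sets, the replicate number as a block, and each array left out. Plots used Python 3.11.15 with matplotlib 3.10.9. The number of arrays limits the precision.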

Additional observations from a re-analysis of the deposited data

How the results depend on the processing

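With the replicate number as a block, 266 genes (195 lower, 71 higher in PA1 -/- cells) and 447 probe sets passed, against 0 of each without it. Among them were Pagr1a (log2 difference -3.51, limma adjusted p = 1.9e-05), Ddit4 (-1.24, adjusted p = 0.00581) and Errfi1 (-1.24, adjusted p = 0.00935). Klf9 (adjusted p = 0.138) and the other 7 of the 10 genes did not pass. Same-numbered arrays deviated together from their group means (correlation 0.805 over tested probe sets), but with 2 numbers and no label to say what a number is, the block stays an alternative. Every other alternative called 0 genes. Dusp1 turned to 0.015 after median scaling. With single arrays left out, Tsc22d3 ranged from -0.21 to 0.45, Sgk1 from -0.68 to 0.29, Dusp1 from -0.43 to 0.36 and Glul from -0.13 to 0.60. These fits hold unequal numbers in the genotypes. Nr3c1, Fkbp5, Per1, Klf9, Ddit4 and Errfi1 kept their direction under every alternative run for them, Ddit4 between -1.53 and -0.95, Errfi1 between -1.57 and -0.90 and Klf9 between -0.72 and -0.48. Per1 had no value under the stricter filter. The count of 4 lower at both numbers became 3 with means of probe sets. The count of 3 higher became 4 after median scaling and 2 under the stricter filter. Both counts were unchanged under the other normalizations, the pseudocounts and the other filter.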
